A study of Mus musculus with 15 samples.

Results

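The 9 genes described here encode surface proteins by which B-1 cells, follicular B cells and chronic lymphocytic leukemia (CLL) cells are told apart: Cd5, Fcer2a (CD23), Cd38, Cd40, Spn (CD43), Cd24a, Cd1d1, Tnfrsf13b (TACI) and Tnfrsf13c (the BAFF receptor). They were chosen by gene symbol, and all 9 had a row in both tables of normalized CPM (counts scaled to library size), among 16470 genes measured after vehicle and 16428 after ibrutinib. Every mouse carried the Eμ-TCL1 transgene, in which an immunoglobulin promoter and enhancer drive the TCL1 oncogene in B-lineage cells, so that a CD5+ leukemia resembling human CLL develops, and the strain was C57Bl/6. The Eμ-TCL1;p53R172H/+ mice (Em-TCL;p53R172H/+ in the labels) also carried 1 germline copy of a hot-spot missense allele of Trp53 in all their cells. B-cells were freed by mechanical disruption of tumor burdened spleens, with no sorting step given, and were kept in culture for 24 h with DMSO as vehicle or with 5 μM ibrutinib, an inhibitor of the B-cell receptor kinase BTK. RNA was sequenced from 15 libraries, of which 3 were Eμ-TCL1 with DMSO (replicates 2, 3 and 4), 5 were Eμ-TCL1;p53R172H/+ with DMSO (replicates 1 to 5), 3 were Eμ-TCL1 with ibrutinib (replicates 1, 3 and 4) and 4 were Eμ-TCL1;p53R172H/+ with ibrutinib (replicates 1, 3, 4 and 5). The labels give neither the ages of the mice nor whether each library came from a separate mouse, so the p-values below measure the spread between libraries only.

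B-1 cells are a self-renewing B-cell lineage that responds without T-cell help. In the mouse they carry CD5 and CD43 and little or no CD23, whereas follicular B cells carry CD23 and lack CD5 and CD43. CLL cells express CD5, a brake on B-cell receptor signals that T cells carry as well, together with CD23, the low-affinity receptor for IgE. TACI binds the survival factors BAFF and APRIL, the BAFF receptor binds BAFF, and CD40 receives the signal of helper T cells through CD40 ligand.

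The libraries differed in how many B-cell transcripts they held, and this bears on each value below. The mean log2(value + 1) over 13 B-cell markers was 7.19 to 8.98 in 9 libraries and 3.28 to 6.26 in the other 6. The 9 libraries at or above 7 are called B-cell-rich here, a limit set after the data were seen. With DMSO, Eμ-TCL1;p53R172H/+ replicates 1 and 2 were B-cell-poor, and their 19 T-cell markers summed to 5428 and 6615 against 332.5 to 980.1 in the other 6 libraries. Eμ-TCL1 replicate 2 with DMSO and replicate 1 with ibrutinib were also B-cell-poor, with 12 myeloid markers summing to 28594 and 20080 against at most 1118 elsewhere and erythroid sums of 17909 and 15494 against at most 264.1. With ibrutinib, Eμ-TCL1;p53R172H/+ replicates 1 and 3 were B-cell-poor, and the T-cell sum was 1288 to 3818 in that genotype against 320.1 to 997.7 in Eμ-TCL1, without overlap. In such bulk RNA, fewer cells of a type and less RNA per cell cannot be told apart. Xist and Ddx3y, which mark females and males, had a female pattern in all 6 Eμ-TCL1 libraries and in 3 of the 9 Eμ-TCL1;p53R172H/+ libraries. Trp53 does not check the genotype labels, since a missense allele is still transcribed, and it lay between 47.4 and 67 in the 7 DMSO libraries other than Eμ-TCL1 replicate 2 (26.0).

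Since Fcer2a was the marker that separated the genotypes, and Tnfrsf13b and Tnfrsf13c moved together from library to library, the 250 bases before their starts are shown with those of Cd5. RefSeq (GRCm38.p6) had windows for 6 of the 9 genes. In the sequences, capitals mark a match to the STAT6 motif (TTC and GAA with any 4 bases between them) or to GAGGAAGT, a PU.1 motif, each searched on both strands. The first Fcer2a sequence precedes the distal start on the minus strand (chr8:3694175-3694424), and the second precedes a start inside the gene (chr8:3690862-3691111).
Fcer2a, distal start: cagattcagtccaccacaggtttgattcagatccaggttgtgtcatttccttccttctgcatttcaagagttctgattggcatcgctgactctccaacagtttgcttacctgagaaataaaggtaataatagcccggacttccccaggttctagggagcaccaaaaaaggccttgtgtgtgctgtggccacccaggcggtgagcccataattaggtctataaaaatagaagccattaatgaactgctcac
Fcer2a, inner start: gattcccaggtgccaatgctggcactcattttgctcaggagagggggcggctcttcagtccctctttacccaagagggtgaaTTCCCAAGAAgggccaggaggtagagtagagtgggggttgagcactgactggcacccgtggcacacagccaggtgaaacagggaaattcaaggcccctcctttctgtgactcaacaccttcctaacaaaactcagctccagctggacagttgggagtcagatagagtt
Tnfrsf13b, chr11:61126505-61126754, plus strand: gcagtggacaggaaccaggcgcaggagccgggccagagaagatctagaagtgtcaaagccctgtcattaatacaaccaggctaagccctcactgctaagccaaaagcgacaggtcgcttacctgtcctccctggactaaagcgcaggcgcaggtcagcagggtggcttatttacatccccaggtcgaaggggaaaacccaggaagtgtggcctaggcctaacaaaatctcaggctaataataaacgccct
Tnfrsf13c, chr15:82224381-82224630, minus strand: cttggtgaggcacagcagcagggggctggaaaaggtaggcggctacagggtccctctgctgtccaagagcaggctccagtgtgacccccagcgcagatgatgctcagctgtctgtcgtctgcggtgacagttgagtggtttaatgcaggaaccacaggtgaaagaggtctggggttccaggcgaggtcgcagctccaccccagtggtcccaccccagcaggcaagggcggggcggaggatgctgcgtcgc
Cd5, chr19:10738975-10739224, minus strand: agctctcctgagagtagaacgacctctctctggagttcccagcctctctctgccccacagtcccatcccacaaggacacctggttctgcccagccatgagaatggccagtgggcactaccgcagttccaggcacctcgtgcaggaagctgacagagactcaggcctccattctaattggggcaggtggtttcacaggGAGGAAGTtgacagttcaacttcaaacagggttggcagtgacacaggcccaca
The inner Fcer2a window held the STAT6 letters 168 bases before its start, and the distal window held none. STAT6 acts downstream of interleukin 4, which induces CD23. Of 32851 mouse windows of this length, 5.85% held the STAT6 letters and 2.44% the PU.1 letters. The octamer ATTTGCAT, an NF-kB motif (GGGA and TTCC with any 2 bases between them) and an EBF motif (TCCC and GGGA with any 2 between) were in none of the 8 windows of the 6 genes, against 1.60%, 1.21% and 0.78% of all windows, and GTGGGAA, the RBPJ motif, was in 1 of the 8 (that of Cd38) against 5.42%. These are matches of letters only.

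**Figure D1:**
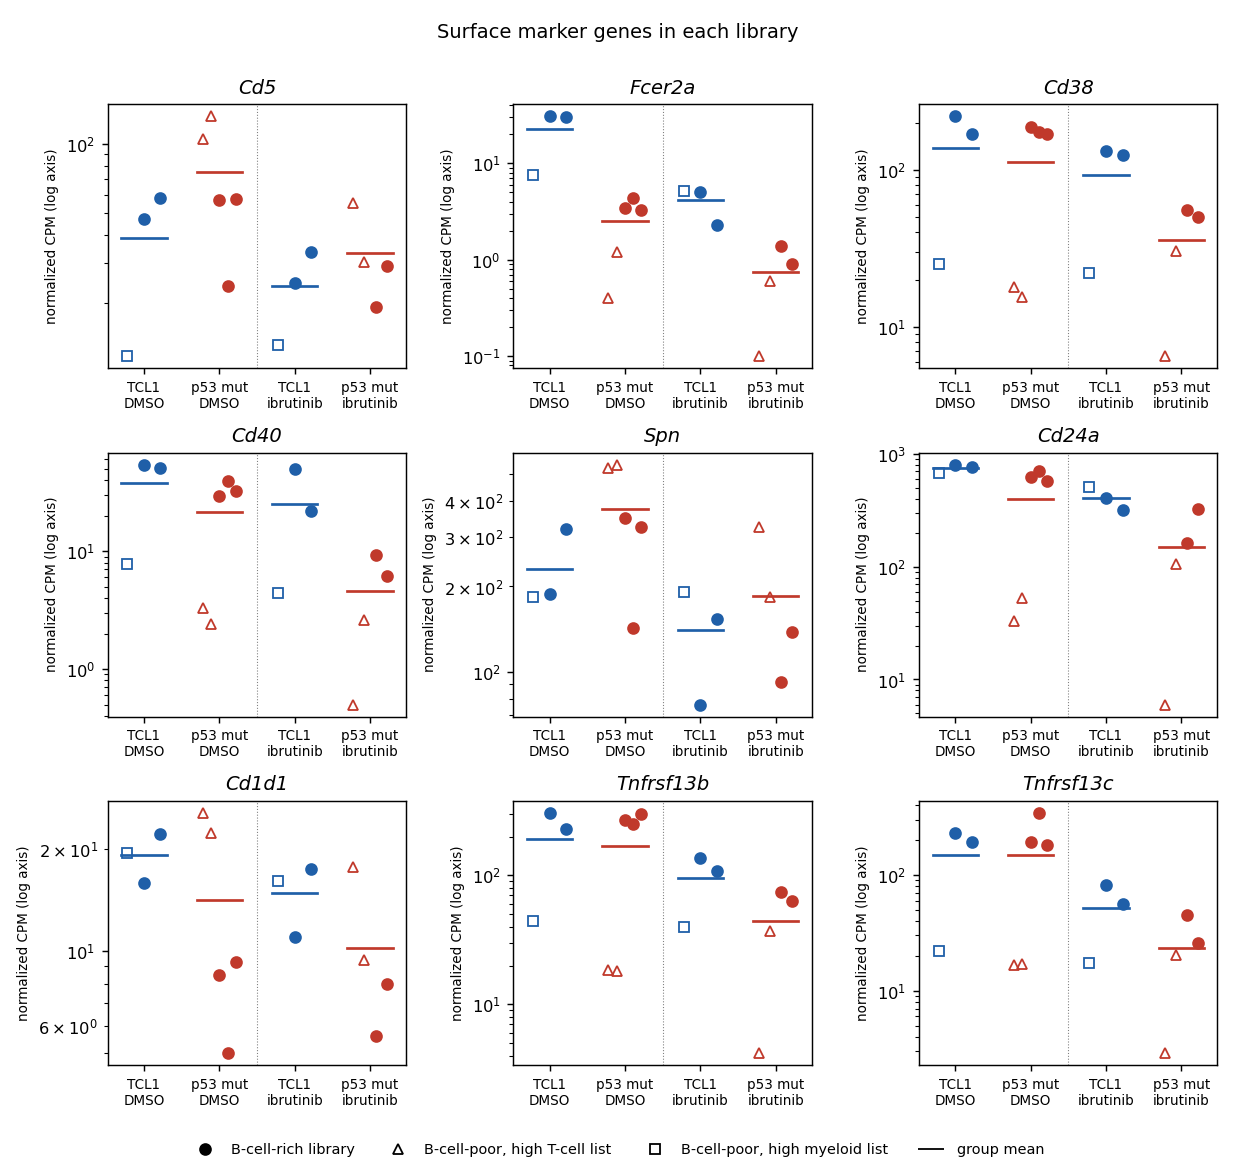
Each panel plots 1 gene in normalized CPM on a log axis, with a point per library for Eμ-TCL1 (blue) and Eμ-TCL1;p53R172H/+ (red) after DMSO or ibrutinib and a line at the group mean. Fcer2a does not overlap between genotypes in either table, whereas Tnfrsf13b, Tnfrsf13c and Cd38 follow whether a library is B-cell-rich (filled circles) or B-cell-poor (open triangles, high T-cell list, and open squares, high myeloid list).

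Fcer2a encodes CD23, which binds IgE and the complement receptor CD21 and is shed by the protease ADAM10. It is on the minus strand at chr8:3681737-3694175. With DMSO, Fcer2a was 7.6, 30.5 and 30.1 normalized CPM in Eμ-TCL1 replicates 2, 3 and 4. In Eμ-TCL1;p53R172H/+ replicates 1 to 5 it was 0.4, 1.2, 3.4, 4.4 and 3.3. All 5 mutant libraries thus lay below all 3 Eμ-TCL1 libraries, the lowest of which was the library with high myeloid markers. The means were 22.7 ± 13.1 (SD, n = 3) and 2.54 ± 1.67 (SD, n = 5). The log2 change (Eμ-TCL1;p53R172H/+ minus Eμ-TCL1, on the log2(value + 1) scale, which understates changes of low genes) was -2.69 ± 0.61 (SE), with an interval of -4.08 to -1.30. By a two-sided exact permutation test p was 0.0179, the smallest that 3 against 5 libraries allow. Over all 16470 genes the change did not pass (limma adjusted p = 0.319, unadjusted p = 0.00193, rank 99 by p).

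Restricting the comparison to B-cell-rich libraries left 30.5 and 30.1 against 3.4, 4.4 and 3.3 normalized CPM. The limma log2 change was -2.74 ± 0.21 (SE, adjusted p = 0.0594), with a two-sided exact permutation p of 0.1, the smallest that 2 against 3 allow, so the difference was as large without the B-cell-poor libraries, although it still did not pass over all genes. The T-cell sums of these 5 libraries were 332.5 and 980.1 in Eμ-TCL1 and 419.4 to 489.5 in Eμ-TCL1;p53R172H/+, so they overlapped. Their B-cell sums did not overlap, with 14243 and 14949 in Eμ-TCL1 and 8328 to 8875 in Eμ-TCL1;p53R172H/+. The part of this gap in the Fcer2a difference was not tested. Among libraries with the female pattern, Eμ-TCL1;p53R172H/+ replicates 3 and 5 stood at 3.4 and 3.3, and replicate 4, with the male pattern, at 4.4. With weights for sample quality Fcer2a passed the threshold (-2.92, limma adjusted p = 0.00339), as did 803 of the 16470 genes.

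With ibrutinib, Fcer2a was 5.2, 5.0 and 2.3 normalized CPM in Eμ-TCL1 replicates 1, 3 and 4, and 0.1, 0.6, 1.4 and 0.9 in Eμ-TCL1;p53R172H/+ replicates 1, 3, 4 and 5. The genotypes again did not overlap, but the values came within a few steps of the rounding of the files (0.1). The means were 4.17 ± 1.62 (SD, n = 3) and 0.75 ± 0.54 (SD, n = 4). The log2 change was -1.56 ± 0.35 (SE, interval -2.39 to -0.73), with a two-sided exact permutation p of 0.0286, the smallest that 3 against 4 libraries allow, and a limma adjusted p of 0.223 (unadjusted p = 0.0028, rank 206). In the B-cell-rich libraries alone the change was -1.06 ± 0.38 (limma adjusted p = 0.386).

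Ordered by mean, Fcer2a was thus highest in Eμ-TCL1 with DMSO, followed by Eμ-TCL1 with ibrutinib, Eμ-TCL1;p53R172H/+ with DMSO and Eμ-TCL1;p53R172H/+ with ibrutinib. The middle pair overlapped (2.3 to 5.2 and 0.4 to 4.4). Levels in different tables were scaled separately, so they stand side by side and were not tested. The interaction of genotype and treatment for Fcer2a was 1.13 ± 0.75 (SE; limma adjusted p = 1).

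Set against the B-cell content of the same library, Fcer2a showed a second feature. The log2 of Fcer2a minus the mean log2 of the 13 B-cell markers was -4.0 and -3.66 in the B-cell-rich Eμ-TCL1 libraries with DMSO, and -6.35 to -6.09 in those of Eμ-TCL1;p53R172H/+. With ibrutinib it was -6.31 and -5.95 in Eμ-TCL1 and -6.26 and -6.11 in Eμ-TCL1;p53R172H/+, so the genotypes overlapped. With a pseudocount of 0.1 in place of 1 the ibrutinib values became -6.76 and -6.18 against -7.17 and -6.78, which do not overlap, and those with DMSO -4.04 and -3.70 against -6.68 to -6.35. Over all libraries with a pseudocount of 0.1, the genotypes did not overlap with DMSO (-4.04 to -3.29 against -6.68 to -4.46). With ibrutinib they did (-6.76 to -3.57 against -7.17 to -5.35). With a pseudocount of 1 they overlapped over all libraries in both tables. With DMSO, Eμ-TCL1;p53R172H/+ replicate 2 (-3.78) then lay within the Eμ-TCL1 range of -4.0 to -3.15, and replicate 1 (-4.37) below it. The values of replicates 1 and 2, 0.4 and 1.2 CPM, lie near that pseudocount. With a pseudocount of 1, the change scaled to the B-cell list was -1.77 ± 1.52 (SE, limma adjusted p = 0.874) with DMSO and -0.04 ± 1.5 (adjusted p = 0.985) with ibrutinib. In the B-cell-rich libraries the interaction for Fcer2a was 1.68 ± 0.44 (SE; limma unadjusted p = 0.00604, adjusted p = 0.469).

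**Figure D2:**
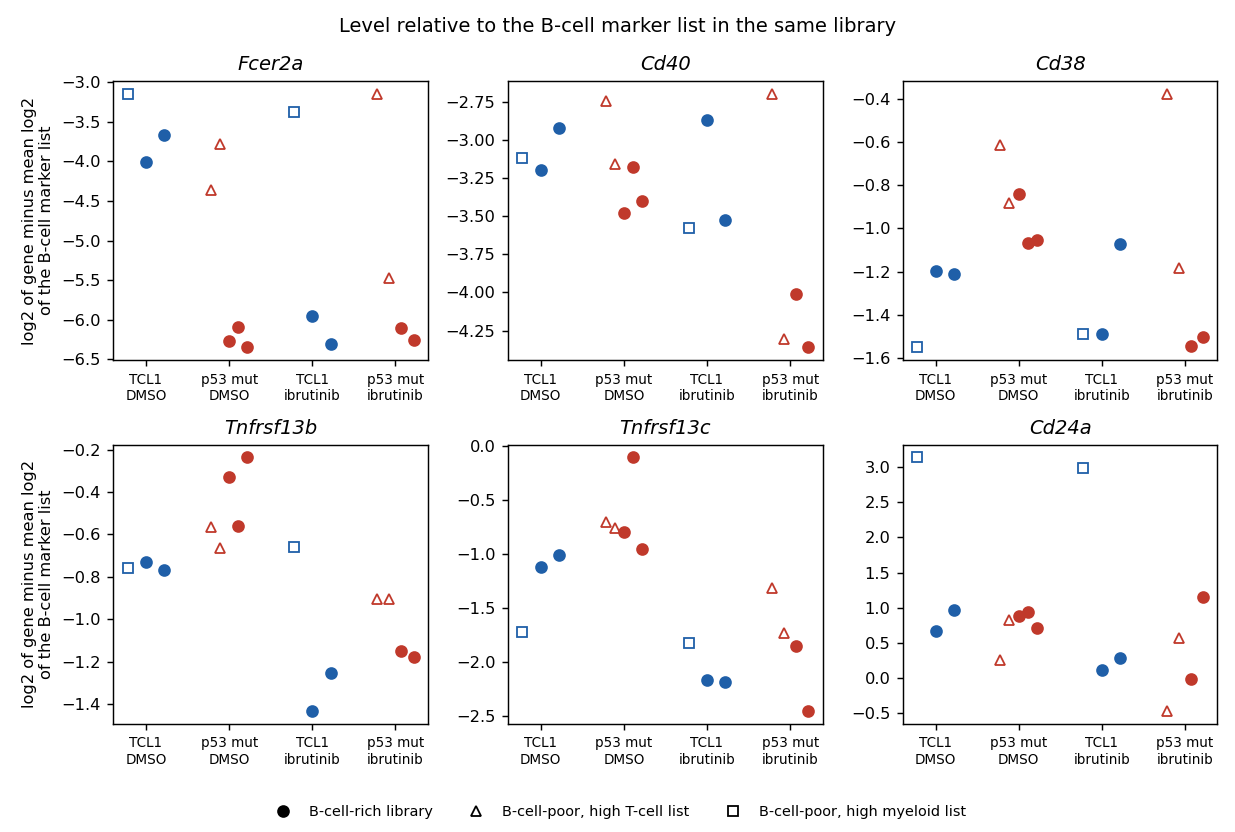
Each panel plots log2(value + 1) of 1 gene minus the mean log2(value + 1) of the 13 B-cell markers in the same library, by group, with symbols as in the plot of values by library. Relative to the B-cell list, Fcer2a in B-cell-rich libraries stands at -4.0 and -3.66 only in Eμ-TCL1 with DMSO and between -6.35 and -5.95 in the other 3 groups. Cd40 in B-cell-rich libraries is lowest in Eμ-TCL1;p53R172H/+ with ibrutinib (-4.36 and -4.01).

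Of the 9 markers with DMSO, none passed the threshold over all genes, which 0.0121% of genes did (2 of 16470). Fcer2a was the 1 gene of 9 lower in Eμ-TCL1;p53R172H/+ without overlap, against 2.93% of genes lower in this way, and none of the 9 was higher in this way (3.52%). At an unadjusted p under 0.05 it was also the 1 of 9, against 8.17% of genes in either direction and 4.65% lower. The markers were lower in 7 of 9 cases, with a median log2 change of -0.63 against 0.04 over all genes. With ibrutinib, 0 of 9 markers passed, as did 0% of genes. Fcer2a was again the 1 of 9 lower without overlap (5.97% of genes), with none higher (6.68%), and the 1 of 9 at an unadjusted p under 0.05 (12% of genes, 6.32% lower), and 7 of 9 markers were lower, with a median of -1.33 against -0.05 over all genes. The interaction passed for 0 of 9 markers and 0% of genes, and 0 of 9 markers had an unadjusted limma p under 0.05, against 0.523% of genes.

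With the B-cell-rich libraries alone the counts differed. With DMSO, 4 of 9 markers (Fcer2a, Cd40, Cd1d1 and Cd24a) were lower in Eμ-TCL1;p53R172H/+ without overlap, against 16.2% of genes lower and 32.7% in either direction. With ibrutinib, 6 of 9 (Fcer2a, Cd38, Cd40, Cd1d1, Tnfrsf13b and Tnfrsf13c) were, against 23.4% lower and 42.7% in either direction. The B-cell list itself was lower without overlap in the Eμ-TCL1;p53R172H/+ libraries of this set. Its mean log2 was 8.62 and 8.98 against 8.41 to 8.53 with DMSO, and 8.03 and 8.53 against 7.19 and 7.37 with ibrutinib. Its part in these counts was not tested. None of the 9 passed over all genes in either table (0.0729% of genes did with DMSO and 0% with ibrutinib). At an unadjusted limma p under 0.05 there were 3 of 9 with DMSO (Fcer2a, Cd40 and Cd1d1, against 17.1% of genes), 3 of 9 with ibrutinib (Cd38, Cd40 and Tnfrsf13b, against 13.4%) and 4 of 9 for the interaction (Fcer2a, Cd38, Cd40 and Tnfrsf13b, against 6.83%), with adjusted p of 0.341 to 0.660 for those of the interaction.

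**Figure D3:**
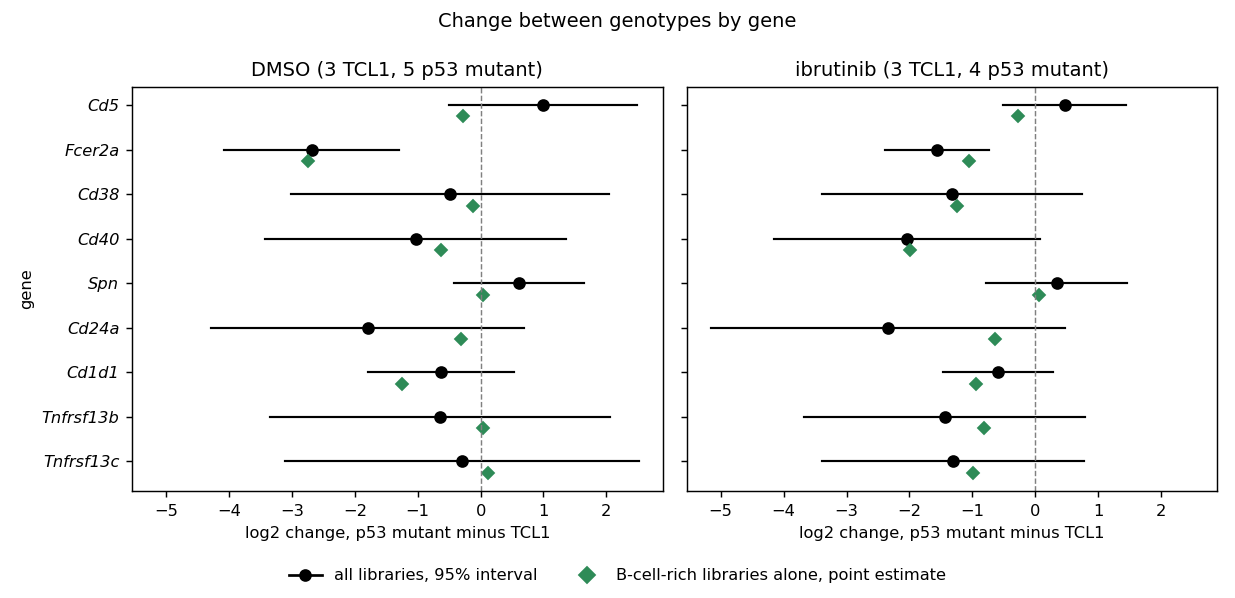
The plot gives the log2 change (Eμ-TCL1;p53R172H/+ minus Eμ-TCL1) of each gene with DMSO (left) and ibrutinib (right), with 95% intervals over all libraries (black) and the point estimate from B-cell-rich libraries (green diamonds). The interval lies wholly below 0 for Fcer2a alone in each panel, and with DMSO the green points of Cd38, Tnfrsf13b, Tnfrsf13c and Spn lie between -0.12 and 0.11.

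Among the receptors for survival signals, Tnfrsf13b encodes TACI, which binds both BAFF and APRIL and is prominent on B-1 and marginal zone cells (chr11:61126755-61149372). With DMSO, Tnfrsf13b was 44.3, 303.4 and 230.4 normalized CPM in Eμ-TCL1 replicates 2, 3 and 4. It was 18.5, 18.1, 268.8, 249.3 and 296.6 in Eμ-TCL1;p53R172H/+ replicates 1 to 5. The 3 low values were those of the 3 B-cell-poor libraries, and the genotypes overlapped. The change of Tnfrsf13b was -0.64 ± 1.19 (SE, interval -3.35 to 2.07), and 0.03 ± 0.18 in B-cell-rich libraries.

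With ibrutinib, Tnfrsf13b was 39.8, 136.1 and 108.6 in Eμ-TCL1 replicates 1, 3 and 4 and 4.2, 37.1, 73.7 and 63.4 in Eμ-TCL1;p53R172H/+ replicates 1, 3, 4 and 5. The genotypes overlapped through the B-cell-poor Eμ-TCL1 library. The change was -1.44 ± 0.95 (SE, limma adjusted p = 0.558). In B-cell-rich libraries, where 136.1 and 108.6 stood against 73.7 and 63.4, it was -0.82 ± 0.19 (unadjusted p = 0.014, adjusted p = 0.291). Relative to the B-cell list these 4 libraries had the opposite order, with -1.43 and -1.26 in Eμ-TCL1 and -1.18 and -1.15 in Eμ-TCL1;p53R172H/+.

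Tnfrsf13c encodes the BAFF receptor, the main survival receptor of mature B cells (chr15:82221743-82224369). It ranged from 22.2 to 230.7 normalized CPM in Eμ-TCL1 and from 16.7 to 341.6 in Eμ-TCL1;p53R172H/+ with DMSO, with a log2 change of -0.30 ± 1.23 (SE, interval -3.11 to 2.51) and 0.11 ± 0.33 in B-cell-rich libraries. With ibrutinib it was 17.2, 81.7 and 56.6 in Eμ-TCL1 replicates 1, 3 and 4 and 2.9, 20.4, 44.9 and 25.6 in Eμ-TCL1;p53R172H/+ replicates 1, 3, 4 and 5. Both B-cell-rich Eμ-TCL1 libraries lay above all 4 mutant libraries, and the B-cell-poor one below 3 of them. The change was -1.31 ± 0.89 (SE, limma adjusted p = 0.566), and -0.98 ± 0.37 in B-cell-rich libraries (adjusted p = 0.394). Relative to the B-cell list, the B-cell-rich libraries with ibrutinib overlapped, with -2.18 and -2.16 in Eμ-TCL1 against -2.45 and -1.85 in Eμ-TCL1;p53R172H/+. Over all DMSO libraries this level was -1.72 to -1.01 in Eμ-TCL1 and -0.95 to -0.11 in Eμ-TCL1;p53R172H/+.

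The rest of the BAFF and APRIL axis comprised the 2 ligands, the third receptor Tnfrsf17 (BCMA) and the adaptors and kinases of the alternative NF-kB pathway. With DMSO, 11 of its 12 genes were measured, 0 passed the threshold, 8 were lower and 3 higher in Eμ-TCL1;p53R172H/+, and the median log2 change was -0.10. Tnfsf13, which encodes APRIL, was listed at 0 in all 5 Eμ-TCL1;p53R172H/+ libraries and averaged 1.07 ± 1.5 (SD, n = 3) normalized CPM in Eμ-TCL1. That SD exceeded the mean, so the Eμ-TCL1 libraries were unequal, at a level near the pseudocount. With ibrutinib 10 were measured, 9 were lower and 1 higher, with a median of -0.18. Traf3, the adaptor that holds this pathway in check, averaged 61.5 ± 8.98 (SD, n = 3) for Eμ-TCL1 against 43.9 ± 4.08 (SD, n = 4) for Eμ-TCL1;p53R172H/+ (log2 change -0.47 ± 0.16 SE, limma adjusted p = 0.343). Birc3, which encodes a ubiquitin ligase of the same complex, had a change of -0.84 ± 0.39 (adjusted p = 0.446).

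Cd40 encodes the receptor for CD40 ligand (chr2:165055627-165072948). With DMSO, Cd40 was 7.8, 54.0 and 51.0 normalized CPM in Eμ-TCL1 replicates 2, 3 and 4. It was 3.3, 2.4, 29.4, 39.7 and 32.2 in Eμ-TCL1;p53R172H/+ replicates 1 to 5. The genotypes overlapped only through Eμ-TCL1 replicate 2, a B-cell-poor library. The log2 change was -1.03 ± 1.04 (SE, limma adjusted p = 0.730), and -0.63 ± 0.17 in B-cell-rich libraries (unadjusted p = 0.0167, adjusted p = 0.200).

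With ibrutinib, Cd40 was 4.4, 49.7 and 21.7 in Eμ-TCL1 replicates 1, 3 and 4 and 0.5, 2.6, 9.3 and 6.1 in Eμ-TCL1;p53R172H/+ replicates 1, 3, 4 and 5. Both B-cell-rich Eμ-TCL1 libraries exceeded every mutant library. The change was -2.04 ± 0.90 (SE, interval -4.16 to 0.07, limma adjusted p = 0.426). In B-cell-rich libraries it was -1.99 ± 0.49 (unadjusted p = 0.0181, adjusted p = 0.298). Unlike Tnfrsf13b, Cd40 kept this order relative to the B-cell list, with -3.53 and -2.87 in Eμ-TCL1 against -4.36 and -4.01 in Eμ-TCL1;p53R172H/+. With DMSO the corresponding values overlapped (-3.20 and -2.92 against -3.48 to -3.18).

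The CD40 pathway list (CD40 ligand, TRAF adaptors, NF-kB subunits and inhibitors, and induced surface proteins) was measured for all 15 genes, with 0 past the threshold in either table. With DMSO, 6 were lower and 9 higher (median log2 change 0.04), and with ibrutinib 9 were lower and 6 higher (median -0.29). Traf6, an adaptor of CD40 and Toll-like receptors, was 51.5 ± 5.28 (SD, n = 3) and 79.9 ± 10.5 (SD, n = 5) with DMSO (0.62 ± 0.19 SE, limma adjusted p = 0.493). Icam1, an adhesion molecule, was 56.9 ± 28.4 and 95.3 ± 19.2 (adjusted p = 0.608). Cd80, a costimulatory ligand, was 32.5 ± 18.6 and 10.8 ± 7.87 (-1.68 ± 0.79 SE, adjusted p = 0.625). Nfkbia, the NF-kB inhibitor IκBα, had changes of -0.65 ± 0.31 with DMSO (adjusted p = 0.632) and -0.91 ± 0.26 with ibrutinib (adjusted p = 0.305). With ibrutinib, Traf1 was 49.4 ± 17.7 and 127 ± 41.3 (adjusted p = 0.246), Traf6 was 0.44 ± 0.15 higher on the log2 scale (adjusted p = 0.343), and Tank, an adaptor that binds TRAF proteins, had a change of -1.07 ± 0.31 (adjusted p = 0.310).

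Cd5 is at chr19:10717116-10739002 on the minus strand. With DMSO, Cd5 was 11.7, 47.0 and 57.8 normalized CPM in Eμ-TCL1 replicates 2, 3 and 4. It was 104.9, 132.3, 57, 23.9 and 57.3 in Eμ-TCL1;p53R172H/+ replicates 1 to 5. The highest values were those of the pair with high T-cell markers and the lowest that of the library with high myeloid markers. The log2 change of 0.99 ± 0.65 (SE, interval -0.51 to 2.48, limma adjusted p = 0.645) became -0.28 ± 0.45 in B-cell-rich libraries, where the genotypes overlapped. With ibrutinib, Cd5 was 13.1, 24.6 and 33.7 against 54.9, 30.3, 19.2 and 29.0, again highest in the library with most T-cell transcripts, with a change of 0.47 ± 0.42 (adjusted p = 0.635) and -0.28 ± 0.30 in B-cell-rich libraries. The interval over all libraries was -0.51 to 1.44 with ibrutinib, and both intervals include 0.

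Spn encodes CD43, a mucin on T cells, myeloid cells and B-1 cells (chr7:127132232-127137823). With DMSO, Spn was 184.2, 188.5 and 319.2 normalized CPM in Eμ-TCL1 replicates 2, 3 and 4 and 524.3, 539.0, 350.6, 142.8 and 323.5 in Eμ-TCL1;p53R172H/+ replicates 1 to 5. The highest pair was again that with high T-cell markers. The log2 change was 0.61 ± 0.45 (SE, limma adjusted p = 0.661) and 0.04 ± 0.50 in B-cell-rich libraries. With ibrutinib Spn ranged from 76.4 to 191.4 and from 91.8 to 325.4, with a change of 0.34 ± 0.48 (adjusted p = 0.765).

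Cd38 encodes an ectoenzyme that consumes NAD and is a marker of aggressive disease in human CLL (chr5:43868553-43912375). With DMSO, Cd38 was 25.1, 219.0 and 168.9 normalized CPM in Eμ-TCL1 replicates 2, 3 and 4 and 17.9, 15.4, 188.8, 174.7 and 168.2 in Eμ-TCL1;p53R172H/+ replicates 1 to 5, low in the 3 B-cell-poor libraries. For Cd38 the log2 change was -0.49 ± 1.11 (SE, interval -3.02 to 2.03) and -0.12 ± 0.16 in B-cell-rich libraries. With ibrutinib, Cd38 was 21.9, 130.9 and 123.5 in Eμ-TCL1 replicates 1, 3 and 4. It was 6.5, 30.4, 55.7 and 50.4 in Eμ-TCL1;p53R172H/+ replicates 1, 3, 4 and 5. Both B-cell-rich Eμ-TCL1 libraries exceeded every mutant library, while the third lay among them. The change was -1.33 ± 0.88 (SE, limma adjusted p = 0.559) and -1.25 ± 0.14 in B-cell-rich libraries (unadjusted p = 0.00112, adjusted p = 0.248). Relative to the B-cell list the latter were -1.49 and -1.07 against -1.55 and -1.50, a smaller gap than in the values themselves.

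Cd24a encodes the heat-stable antigen, a small glycoprotein anchored by a lipid, which erythroid and myeloid cells carry as well as B cells (chr10:43578284-43584265). With DMSO, Cd24a was 673.4, 797.0 and 768.9 normalized CPM in Eμ-TCL1 replicates 2, 3 and 4. It was 33.3, 52.7, 621.7, 704.6 and 570.4 in Eμ-TCL1;p53R172H/+ replicates 1 to 5, low only in the pair with high T-cell markers. Of the genes that followed B-cell content, it was the one that stayed high in the B-cell-poor Eμ-TCL1 libraries, those with high myeloid and erythroid markers, where it stood 3.14 and 2.98 above the B-cell list on the log2 scale. For Cd24a the log2 change was -1.79 ± 1.09 (SE, limma adjusted p = 0.645) and -0.31 ± 0.20 in B-cell-rich libraries. With ibrutinib, Cd24a was 508.0, 401.1 and 317.5 against 6.0, 104.7, 162.9 and 322.4, where only Eμ-TCL1;p53R172H/+ replicate 5 overlapped Eμ-TCL1, with a change of -2.35 ± 1.2 (adjusted p = 0.476) and -0.64 ± 0.41 in B-cell-rich libraries.

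Cd1d1 encodes the molecule that presents lipids to natural killer T cells and is high on marginal zone and regulatory B cells (chr3:86995834-86999441). Its near-identical neighbour Cd1d2 had no row in either table, so reads shared by the pair make its level uncertain. With DMSO, Cd1d1 was 19.4, 15.9 and 22.2 normalized CPM in Eμ-TCL1 replicates 2, 3 and 4 and 25.5, 22.3, 8.5, 5.0 and 9.3 in Eμ-TCL1;p53R172H/+ replicates 1 to 5. The 3 B-cell-rich mutant libraries lay below every Eμ-TCL1 library, and the pair with high T-cell markers above. The log2 change was -0.63 ± 0.51 (SE, limma adjusted p = 0.677) and -1.24 ± 0.34 in B-cell-rich libraries (unadjusted p = 0.0165, adjusted p = 0.200). With ibrutinib, Cd1d1 was 16.1, 11.0 and 17.4 against 17.7, 9.4, 5.6 and 8.0, again with the mutant library highest in T-cell markers above the rest. The change was -0.59 ± 0.37 (adjusted p = 0.550) and -0.95 ± 0.34 in B-cell-rich libraries (adjusted p = 0.381).

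**Figure D4:**
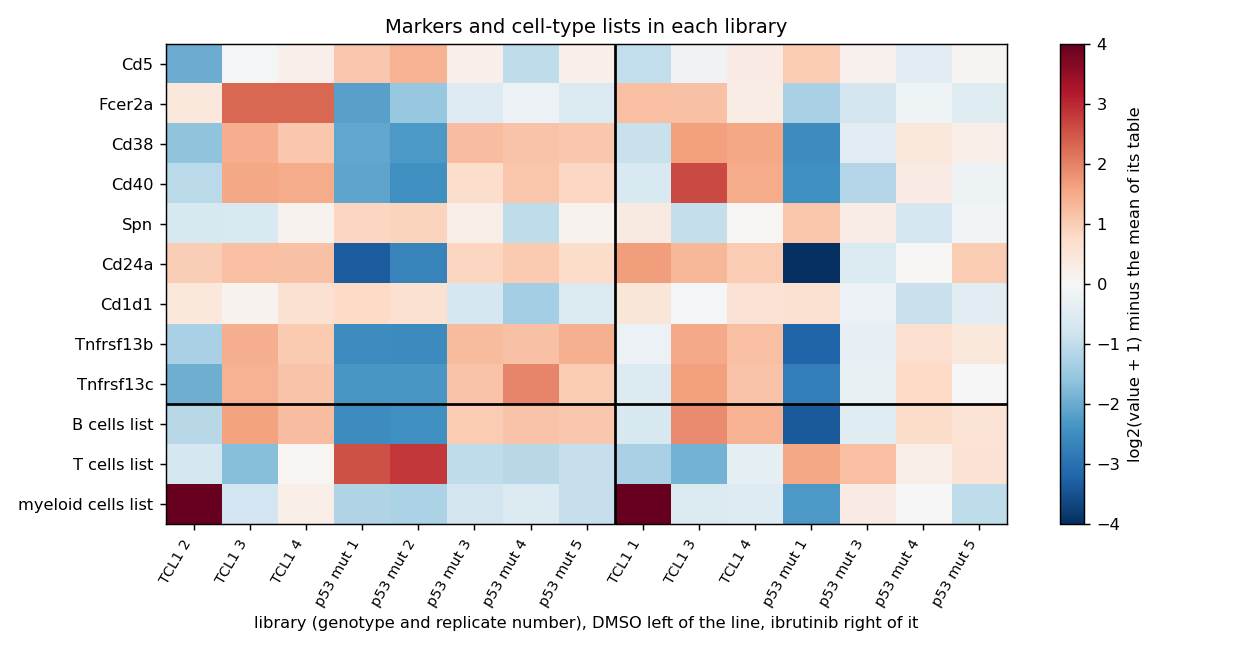
The map colors log2(value + 1) minus the mean of its own table for the 9 genes and for the mean of 3 cell-type lists in each of the 15 libraries, with the color scale ending at -4 and 4. Tnfrsf13b, Tnfrsf13c, Cd38 and Cd40 share the pattern of the B-cell list. In each table Cd5 and Spn are highest where the T-cell list is highest, but they do not follow that list in every library.

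Among themselves the markers fell along these lines. Over the 15 libraries, with each table centred on its own mean, Pearson's r with the B-cell list was 0.99 for Tnfrsf13b, 0.98 for Cd38, 0.97 for Tnfrsf13c, 0.96 for Cd40, 0.86 for Cd24a and 0.65 for Fcer2a. It was -0.36 for Cd5, -0.53 for Cd1d1 and -0.73 for Spn. With the T-cell list r was 0.72 for Spn, 0.67 for Cd5 and 0.39 for Cd1d1. It was -0.85 for Cd24a, -0.81 for Cd40, -0.80 for Tnfrsf13b, -0.75 for Tnfrsf13c, -0.74 for Cd38 and -0.73 for Fcer2a. Among all cell-type lists, the largest r in size was with myeloid cells for Cd5 (-0.80), NK cells for Spn (0.77) and plasma cells for Fcer2a (0.77). Tnfrsf13b and Tnfrsf13c had an r of 0.98 with each other, and Cd5 and Spn 0.72. The points of these correlations share libraries, scaling and cell makeup, and they are given as a description.

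Of 10119 genes ranked by the same measure, those most like Tnfrsf13b were the class II genes H2-Aa (r = 0.997) and H2-Ab1 (0.997) and then Swap70 (0.996). Those most like Cd38 were Blk (0.991), H2-Eb1 (0.989) and Pou2af1 (0.988). Cd24a was followed by Ctsh (0.990), Lyn (0.989) and Plcg2 (0.980), Cd40 by Nid1 (0.983), Fam83g (0.980) and Snx8 (0.974), and Tnfrsf13c by A530032D15Rik (0.987), Fam167a (0.987) and A530040E14Rik (0.986). The best matches were looser for Fcer2a (Cmpk1 0.933, Myo10 0.916 and Rdh12 0.914) and Spn (Clec2d 0.921, Usp18 0.917 and Arhgap1 0.914), with Cd5 (Cacna2d4 0.963, Cers4 0.960 and Rpsa 0.955) and Cd1d1 (Cnn2 0.964 and Nudt7 0.936) between.

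Per kilobase of exon, the median level over the DMSO libraries fell in the order Cd24a (251 normalized CPM per kilobase), Tnfrsf13c (91.5), Tnfrsf13b (84.6), Spn (68.6), Cd38 (43.3), Cd5 (11.6), Cd40 (9.04), Cd1d1 (6.87) and Fcer2a (1.26). With ibrutinib Cd24a (123) was again first and Fcer2a (0.453) last. The ranges over libraries of every pair of neighbours in both orders overlapped.

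Ligands, partners and processing enzymes of the markers were measured for 18 of 19 genes, of which 0 passed in either table, with 10 lower and 8 higher with DMSO (median log2 change -0.21) and 11 lower and 7 higher with ibrutinib (median -0.21). Cr2, which encodes the CD23 partner CD21, was 16.6 ± 11.4 (SD, n = 3) and 7.46 ± 9.98 (SD, n = 5) with DMSO (-1.52 ± 0.82 SE, limma adjusted p = 0.645). With ibrutinib it was 7.1 ± 3.90 and 2.03 ± 1.66 (-1.52 ± 0.55, adjusted p = 0.352). Pecam1, the CD38 ligand CD31, had changes of -0.64 ± 0.30 (adjusted p = 0.623) and -0.77 ± 0.35 (adjusted p = 0.430). In the other direction were Igf2r (0.51 ± 0.42, adjusted p = 0.689) and Ezr (0.40 ± 0.41, adjusted p = 0.731) with DMSO, and Fyn (1.73 ± 0.59, adjusted p = 0.346) and Msn (0.27 ± 0.30, adjusted p = 0.709) with ibrutinib. Fyn encodes a kinase of T cells. T-cell markers were higher in that group, and their part in the Fyn difference was not tested.

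Other genes known from B-1 or CLL cells were measured for 25 of 26, with 0 past the threshold in either table, 16 lower and 9 higher with DMSO (median log2 change -0.28) and 18 lower and 7 higher with ibrutinib (median -1.07). With DMSO, Itgam, the integrin CD11b of myeloid and B-1 cells, was 298 ± 454 (SD, n = 3) and 3.80 ± 3.62 (SD, n = 5). The Eμ-TCL1 SD exceeded the mean, so those libraries were unequal. The part of the Eμ-TCL1 library with high myeloid markers in that mean was not tested. Ctla4, an inhibitory receptor, was 72.8 ± 54.1 and 9.88 ± 2.43 (-2.24 ± 0.70 SE, limma adjusted p = 0.503). Lef1, a transcription factor of T cells and CLL cells, was 23.0 ± 15.1 and 150 ± 112 (2.47 ± 0.80, adjusted p = 0.518), and Cd69, an activation marker, was 17.1 ± 4.97 and 65.6 ± 57.2 (adjusted p = 0.568). With ibrutinib, Lef1 was 36.3 ± 24.1 (SD, n = 3) and 207 ± 58.0 (SD, n = 4; 2.62 ± 0.42, adjusted p = 0.165) and Cd6, the T-cell and B-1 relative of CD5, 13.6 ± 6.13 and 51.8 ± 17.1 (adjusted p = 0.210). Fcrl5, an Fc receptor-like protein of B-1 and marginal zone cells, was 51.3 ± 17.4 and 4.78 ± 3.25 (-3.46 ± 0.69 SE, adjusted p = 0.203), and Plscr1, a B-1 marker, 19.7 ± 6.22 and 4.90 ± 3.31 (-2.0 ± 0.57, adjusted p = 0.300). The T-cell and B-cell sums moved with genotype in the same libraries, and their part in these differences was not tested.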

How the data were processed

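The authors aligned reads with TopHat2 2.0.12, used SAMtools 0.1.19 and HTSeq (submitters' processing notes), counted on the GENCODE M2 annotation of GRCm38, removed genes under 0.5 CPM and used edgeR for normalization. Signal values as deposited are CPM on an effective library size, scaled by the authors separately in 2 tables, 1 per treatment, and rounded to 0.1. Whole reads could not be recovered from these values, so depth is unknown, no count test was run and no counting interval is given. Column sums ranged from 756625 to 1359650, and treatments were not tested against each other across tables. Exon lengths and positions came from GENCODE M21, on the same build.

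Within each table, all genes were compared between genotypes with limma 3.58.1 (eBayes with a trend, R 4.3.3) on log2(value + 1), p adjusted by Benjamini-Hochberg and called at 0.05, and the interaction was fitted over the 15869 genes in both tables. Single genes were also tested by two-sided exact permutation tests over libraries (9 genes in each of 2 tables). On simulated data with 200 genes moved by 3 on the log2 scale, 81.5% were recovered with DMSO, 83.5% with ibrutinib and 76.5% for the interaction. Of the genes called there, 8.43%, 6.70% and 8.38% had not been moved. Noise was drawn for each gene alone, with the largest spreads capped, and the moved genes had a mean log2 above 3. These shares therefore do not apply to genes that vary with cell makeup or are as low as Fcer2a with ibrutinib.

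The 9 genes and all lists were chosen with earlier results of these data known. Genes named beside the 9 were, per list and table, the 2 with the lowest p in each direction, the 3 most like each gene, and the 3 most abundant of each cell marker list, some of which are not reported here. Camlg, Cd1d2 and Ror1 were in neither table and Tnfrsf17 not in that of ibrutinib. Alternatives were other pseudocounts, a filter on the mean (at least 5), quantile normalization, scaling to the B-cell list, sample weights, a replicate block and left-out libraries. Same-numbered libraries of the genotypes come from different mice. Exact tests used scipy 1.17.1 and figures matplotlib 3.10.9, both in Python 3.11.15.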

Additional observations from a re-analysis of the deposited data

How the results depend on the processing

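With DMSO, 2 genes of the table passed the threshold, against 6 with a pseudocount of 5, 1 scaled to the B-cell list, 803 with sample quality weights, 0 with a replicate block, 1 without the T-cell-rich libraries (Eμ-TCL1;p53R172H/+ replicates 1 and 2), 12 in B-cell-rich libraries alone and 0 to 61 with each library left out (61 if Eμ-TCL1 replicate 2 was left out, 0 if its replicate 3 was, and 5 for Eμ-TCL1;p53R172H/+ replicate 4). With ibrutinib 0 passed, against 28 with weights and 0 to 24 with each library left out (24 for Eμ-TCL1 replicate 1, and 5 for Eμ-TCL1;p53R172H/+ replicate 5). Of the 9 markers 0 passed under each alternative in either table or the interaction, except 1 with weights with DMSO (Fcer2a). Markers without overlap, 1 with DMSO, numbered 3 scaled to the B-cell list (Cd38, Tnfrsf13b and Tnfrsf13c, all higher in Eμ-TCL1;p53R172H/+, while Fcer2a overlapped), 2 without T-cell-rich libraries, 4 in B-cell-rich libraries and 1 to 3 with each library left out (3 for Eμ-TCL1;p53R172H/+ replicate 4, with Spn higher, and for Eμ-TCL1 replicate 2). With ibrutinib, also 1, they numbered 0 scaled (Fcer2a overlapped), 2 without T-cell-rich libraries, 6 in B-cell-rich libraries and 1 to 5 with each left out (5 for Eμ-TCL1 replicate 1, and 2 for Eμ-TCL1;p53R172H/+ replicate 1 or 5 or Eμ-TCL1 replicate 4). Shares over all genes were computed only for all libraries and for B-cell-rich libraries. The other counts therefore have no background and are not read as results about the markers. Scaled to the B-cell list, the median log2 change over all genes was itself 0.96 with DMSO and 1.48 with ibrutinib. The log2 change of Fcer2a kept its direction under every alternative, from -3.31 to -2.37 with DMSO and -1.86 to -1.36 with ibrutinib when each library was left out. With the mean of at least 5, Fcer2a had no value with ibrutinib or in the interaction.

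Changes that took the opposite sign, none past the threshold, were these. Scaled to the B-cell list, Cd38 became 0.43 with DMSO and 0.20 with ibrutinib, and Tnfrsf13b 0.28 and 0.082. Tnfrsf13c became 0.62 and 0.22, and Cd1d1 0.29 and 0.94. The interactions of Cd5, Spn and Cd24a became 0.085, 0.33 and 0.050. This scaling moved the median over all genes to 0.96 with DMSO, 1.48 with ibrutinib and 0.53 for the interaction. Each of these marker values lay below the median of its comparison. Without T-cell-rich libraries with DMSO, Cd38 became 0.84, Cd40 0.24, Tnfrsf13b 0.89 and Tnfrsf13c 1.18. In B-cell-rich libraries Cd5 became -0.28 in both tables, Tnfrsf13b 0.035 and Tnfrsf13c 0.11 with DMSO, and the interactions of Cd5 and Spn 0.0016 and 0.0098. With weights Cd5 became -0.022 with ibrutinib and the interaction of Spn 0.14. With numbers in both tables only, the interactions of Cd5 and Spn became 0.066 and 0.30. With each library left out, Cd38 ranged from -1.45 to 0.084 and Tnfrsf13c from -1.36 to 0.30 with DMSO, Spn from -0.047 to 0.62 with ibrutinib, and the interactions of Cd5 from -0.94 to 0.17, Cd38 from -1.66 to 0.13, Spn from -0.66 to 0.012, Cd24a from -1.23 to 0.61, Cd1d1 from -0.24 to 0.30, Tnfrsf13b from -1.38 to 0.061 and Tnfrsf13c from -1.65 to 0.056. The causes were not tested.

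With a replicate block Tnfrsf13c became 0.063 with DMSO, and no marker changed its call. Deviations of same-numbered libraries correlated at 0.19, 0.28 and 0.05 with DMSO and at -0.05, -0.20 and -0.18 with ibrutinib, so the numbers were not taken as pairs. Limits are the small groups, the unknown depth, which bears most on Fcer2a with ibrutinib (0.1 to 5.2), and cell makeup and sex, which vary in part with genotype.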

Other observations

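Plasma-cell genes were lower in Eμ-TCL1;p53R172H/+ for 6 of 6 list members in each table (median log2 change -1.47 with DMSO and -1.34 with ibrutinib, against 0.04 and -0.05 over all genes), with 0 past the threshold. Their sums overlapped between Eμ-TCL1 and Eμ-TCL1;p53R172H/+ with DMSO (514.1 to 1437 against 142.6 to 1566) and with ibrutinib (375.5 to 1153 against 83.7 to 746.7). The highest sum of any library was that of Eμ-TCL1;p53R172H/+ replicate 4 with DMSO. The B-cell list was lower for 12 of 13 and 13 of 13 genes (medians -0.87 and -1.53) and the myeloid list for 12 of 12 in each table (-2.20 and -1.97), and their part in the plasma-cell values was not tested. The joining chain of secreted IgM and IgA, Jchain, averaged 187 ± 109 (SD, n = 3) and 20.0 ± 23.7 (SD, n = 5) normalized CPM with DMSO (-3.56 ± 0.83 SE, limma adjusted p = 0.338). The 8 NK-cell markers had sums of 930 and 984.2 with DMSO for Eμ-TCL1;p53R172H/+ replicates 1 and 2, those with high T-cell markers, against at most 86.9 in Eμ-TCL1. The 6 dendritic-cell markers summed to 6.7 to 99.2 over all libraries.

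Eμ-TCL1;p53R172H/+ replicate 3 had 1491 normalized CPM of Xist and 0.1 of Ddx3y with DMSO, and 1.0 and 82.1 with ibrutinib, so the same number did not stand for a mouse of the same sex in both tables. The mitochondrial 16S rRNA gene mt-Rnr2 took 3.29% to 20.7% of the column sum in DMSO libraries and 4.79% to 34.7% in ibrutinib libraries.

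Among the most abundant genes of the cell marker lists were Ighm (266 to 10358 normalized CPM over the 15 libraries), Ms4a1 and Cd79b for B cells, Tcf7 (12.8 to 912), Lck and Cd2 for T cells, Eomes, Klrd1, Nkg7 and Prf1 for NK cells, and Irf4, Mzb1, Xbp1 and Prdm1 for plasma cells. Others were S100a9 (2.1 to 10064), S100a8 and Lyz2 for myeloid cells, Hbb-bs (4.3 to 11187), Hbb-bt and Hba-a1 for erythroid cells, and Itgax, Flt3 and Zbtb46 for dendritic cells.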
